A study of Mus musculus with 16 samples.

Results

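A set of 38 genes of the fibroblasts and barrier cells of the meninges, and of the matrix they lay down, was followed in mouse hypothalamus across diets of different protein and fat content. The list of names was made with earlier results of these data known. Every gene of the deposited table whose symbol was on it was taken, which gave 38 of 47069 genes, each found once. Of these, 37 were among the 16646 genes with enough counts for testing, and 1, Ogn, had no count in any library. They fall into 7 groups by role: fibrillar collagens, collagen VI, basement membrane, proteoglycans and other matrix proteins, arachnoid and barrier genes, retinoid, Wnt and IGF signals, and transcription factors.

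The mice were C57BL/6N, an inbred laboratory strain, and no altered gene is named. They ate diets with 1%, 2.5%, 5% or 20% of energy as protein, at either 60% or 20% of energy as fat, so that 8 diets were crossed in full. Each diet had 2 RNA sequencing libraries of hypothalamus tissue cut from the whole brain, which puts 4 libraries at every protein level and 8 at every fat level. The diet codes in the labels begin alike for all diets with 1% and 2.5% protein, and in another way for all diets with 5% and 20% protein. Age, sex, time on the diet and whether the libraries of a diet came from different animals are not given in the sources used here. The p-values below therefore cover the scatter among libraries alone, and part or all of it may be technical.

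The meninges are the membranes that wrap the brain. Their fibroblasts secrete collagens and small proteoglycans, send retinoic acid, Wnt and IGF signals to the tissue beneath, and depend on forkhead factors for their formation, while the arachnoid barrier layer seals the cerebrospinal fluid with E-cadherin junctions and clears solutes through organic anion and cation transporters. Related fibroblasts follow larger vessels into the brain, and the vascular basement membrane, built on collagen IV, laminin and nidogen, is shared with endothelial and mural cells. Several of the genes are also made outside the meninges: oligodendrocytes make Ptgds, and vessel walls make Col4a1 and Col4a2. A count from whole tissue therefore does not say which cells a transcript came from.

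The start regions of 3 members that fell at 1% protein are shown as examples from different roles, a fibrillar collagen chain each for collagen I and III and a secreted ligand. They are the 250 bases before the RefSeq start of Col1a2, Col3a1 and Wnt6, read on the plus strand of GRCm38.p6 at chr6:4505368-4505617, chr1:45311288-45311537 and chr1:74771642-74771891. Capitals mark 3 promoter motifs searched on both strands, namely the CCAAT box, the GC box with the letters GGGCGG and the TATA box with the letters TATAAA, and matches may overlap.
Col1a2: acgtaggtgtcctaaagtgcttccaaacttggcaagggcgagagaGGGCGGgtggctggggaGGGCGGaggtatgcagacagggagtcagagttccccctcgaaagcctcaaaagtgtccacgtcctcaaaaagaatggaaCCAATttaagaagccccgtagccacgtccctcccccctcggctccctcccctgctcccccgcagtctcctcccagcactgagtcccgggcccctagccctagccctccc
Col3a1: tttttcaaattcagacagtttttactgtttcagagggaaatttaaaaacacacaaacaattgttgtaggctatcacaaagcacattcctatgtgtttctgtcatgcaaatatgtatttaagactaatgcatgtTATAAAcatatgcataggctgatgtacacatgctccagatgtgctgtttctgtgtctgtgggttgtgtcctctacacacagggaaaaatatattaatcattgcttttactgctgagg
Wnt6: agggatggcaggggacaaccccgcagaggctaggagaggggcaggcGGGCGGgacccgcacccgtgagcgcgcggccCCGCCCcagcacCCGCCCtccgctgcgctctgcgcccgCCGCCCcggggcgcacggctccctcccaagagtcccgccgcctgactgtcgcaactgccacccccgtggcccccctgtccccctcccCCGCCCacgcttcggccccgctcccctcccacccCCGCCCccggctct
The Col1a2 window lies inside the longer span that GENCODE gives the gene. It holds CCAAT once, 109 bases before the start, and GGGCGG at 188 and 205 bases before it. The Col3a1 window has a single match, TATAAA at 117 bases. The Wnt6 window has 6 matches to GGGCGG, of which those written CCGCCC lie on the other strand, and none to the other 2 motifs. RefSeq windows were found for 27 of the 38 members, 33 windows in all since some genes have more than 1 start. CCAAT lay in 12 of those 33 windows (36.4%) and in 33.8% of all 32851 windows, GGGCGG in 16 (48.5%) against 32.7%, and TATAAA in 2 (6.06%) against 12.4%. These matches describe letters in a window and nothing about which factors bind there.

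Some libraries stood apart in their makeup. Library totals were close, from 17731242 to 18511818 counts. The summed level of 10 cortical and hippocampal neuron markers was 797 CPM, a count scaled to library size by edgeR's TMM factors, in replicate 2 on 20% fat and 1% protein and 1710 CPM in replicate 2 on 20% fat and 2.5% protein, and lay between 371 and 499.5 CPM in the other 14 libraries. These 2 libraries also had the highest sums of choroid plexus markers, 275 and 228 CPM, followed by 151 CPM in replicate 1 on 60% fat and 1% protein and 50.7 to 79.2 CPM elsewhere. Mitochondrial genes held 1.54%, 1.61% and 1.78% of the counts in the other 3 libraries at 1% protein, against 2.19% to 3.20% in all remaining libraries. Of 14 hypothalamic neuron markers 13 had counts in every library, and they summed to 672 to 1067 CPM, with Kiss1 listed at 0.

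At 1% protein against 20% protein, 28 of the 37 genes fell and none rose. Over all 16646 genes, 6.01% fell and 8.26% rose, so the share of the set that fell was above the share of all genes. The set was chosen with earlier results of these data known. This and the later comparisons with all genes therefore describe the set and are no independent test of it. Of the 37, 36 had a log2 change below 0, and their median was -0.76 against 0.0035 for all genes. In 26 of them every library at 1% protein lay below every library at 20% protein, which held for 6.35% of all genes. Whether fewer cells of these types or less RNA per cell lay behind a lower value cannot be told apart in whole tissue. Since the start of the diet code changes between 2.5% and 5% protein, a difference between these series of diets and the protein level cannot be told apart either, here and at 2.5% against 20% protein. These comparisons come from edgeR's quasi-likelihood F test on all 16 libraries with Benjamini-Hochberg adjustment at 0.05. When each of the 16 libraries was left out in turn, 21 to 33 members fell, and 33 fell without both libraries with cortical markers. The lowest number came without replicate 2 on 60% fat and 1% protein. The number of all genes that fell moved further. It was 1001 with all libraries, 2804 without replicate 2 on 20% fat and 1% protein, and 487 to 601 without any of 5 others, which were both libraries on 60% fat and 1% protein, replicate 1 on 20% fat and 1% protein, replicate 1 on 60% fat and 20% protein and replicate 2 on 20% fat and 20% protein.

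**Figure D1:**
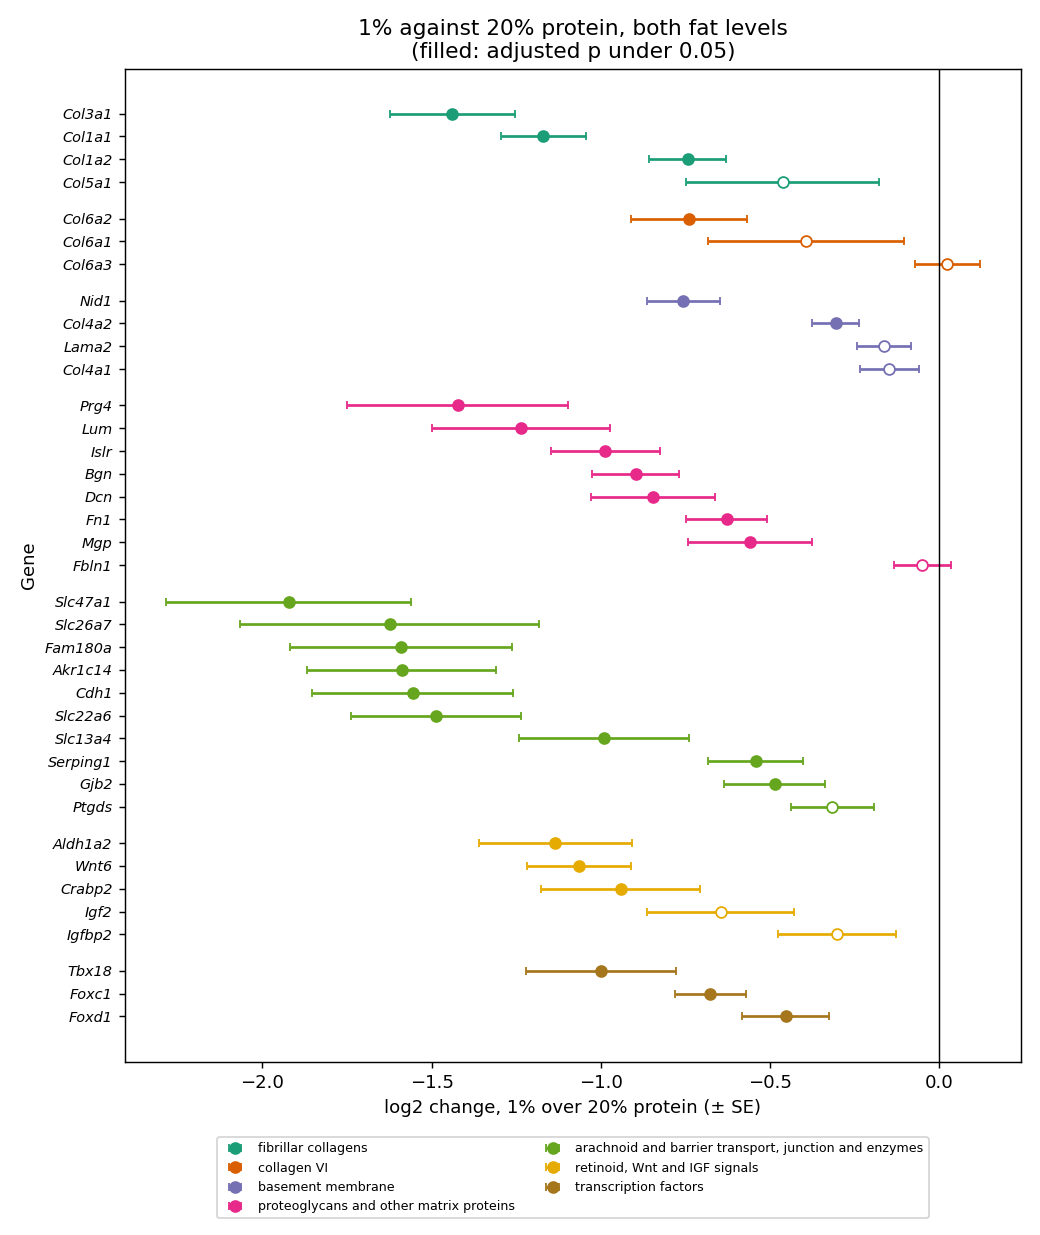
Log2 change of each of the 37 tested genes at 1% over 20% protein (x axis, bars ± SE, 4 libraries per level), with genes grouped by role down the page; filled points passed an adjusted p of 0.05. All filled points lie left of 0, from -1.92 for Slc47a1 to -0.31 for Col4a2, and the only point right of 0 is the open one of Col6a3.

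Among the fibrillar collagens, which form the tensile fibres of connective tissue, 3 of 4 fell. In what follows, the 4 values of a protein level are those of the 2 libraries at 60% fat and then the 2 at 20% fat, by replicate number. Col1a1, a chain of collagen I encoded at chr11:94936224-94953042 on the plus strand of GRCm38, stood at 8.95, 7.20, 6.52 and 9.17 CPM at 1% protein, against 15.97, 17.2, 18.5 and 20.01 CPM at 20% protein. All 4 low-protein libraries lay below all 4 at 20% protein, and the gap between the groups was wider than the spread inside either. Its log2 change was -1.17 ± 0.12 (SE), a 2.25-fold lower level, with an adjusted p of 4.07e-05, the smallest of the set. The other chain of the same molecule, Col1a2, had 23.2, 21.4, 18.1 and 23.6 CPM at 1% protein, against 33.4, 33.98, 39.9 and 37.1 CPM at 20% protein. Here too the groups did not overlap, but the change was smaller, -0.74 ± 0.11 (adjusted p = 0.000746). Col3a1, the chain of collagen III, had 2.25, 1.74, 1.71 and 2.28 CPM at 1% protein, against 4.78, 5.49, 6.16 and 5.28 CPM at 20% protein. Its log2 change of -1.44 ± 0.18 was the largest of the collagens in the set (adjusted p = 0.000224). Col5a1, whose product starts the assembly of collagen I fibrils, had a change of -0.46 ± 0.29 that did not pass (adjusted p = 0.276). Its values at 1% protein spread from 2.81 CPM to 8.57 CPM, the highest in replicate 2 of 20% fat, a library with cortical markers. Without the 2 libraries with cortical markers Col5a1 was called lower, with a log2 change of -0.85 and an adjusted p of 0.000629.

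**Figure D2:**
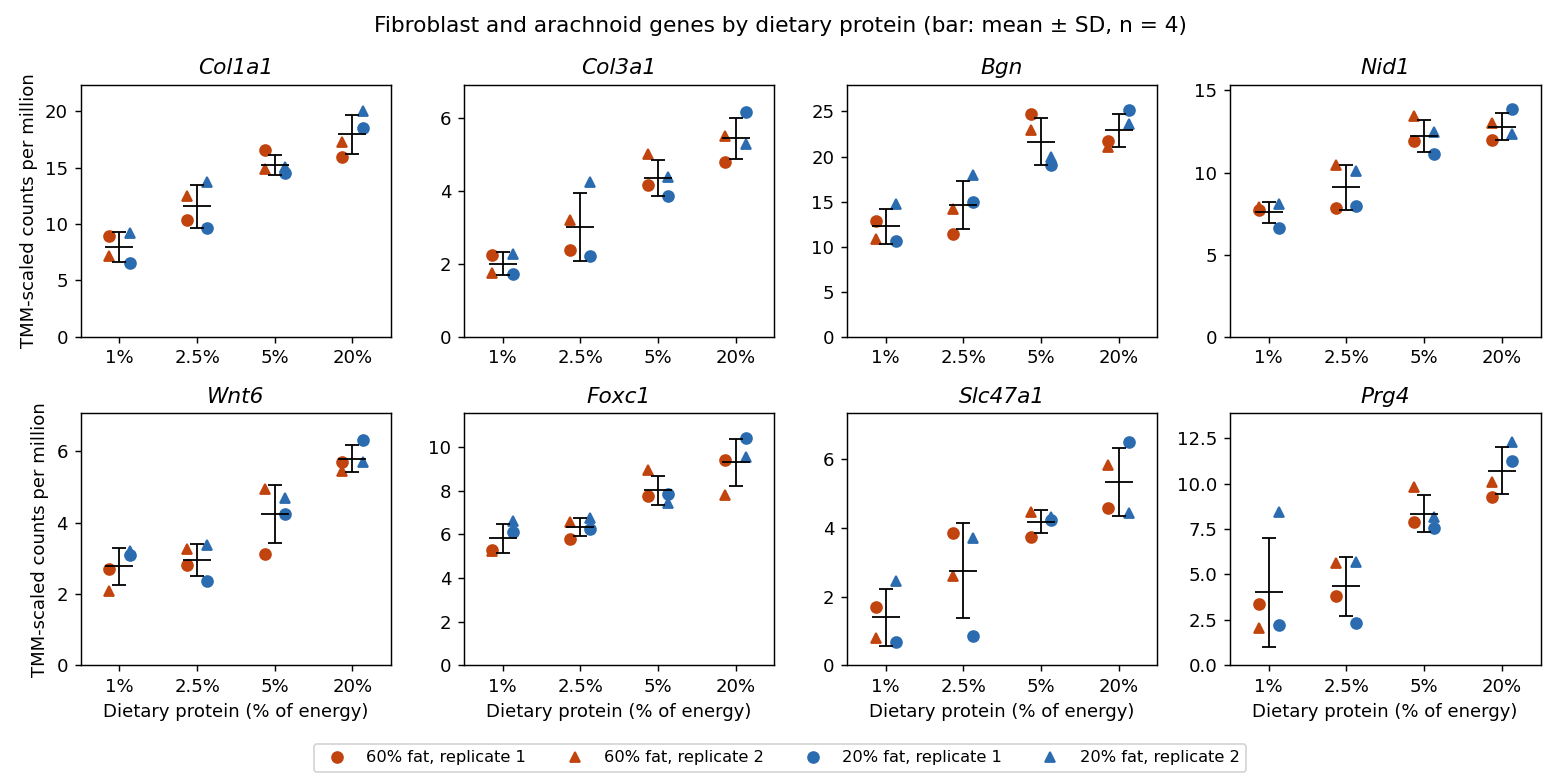
TMM-scaled CPM of 8 genes (y axis, from 0) by dietary protein (x axis, % of energy); points are single libraries, coloured by fat level and shaped by replicate, and bars give the mean ± SD of 4 libraries. In all 8 panels the means increase at every step from 1% to 20% protein, and in each the 4 libraries at 1% protein lie below the 4 at 20% protein. The 8 are chosen examples: of the 37 tested genes, 28 had that order of means and 26 that separation.

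Collagen VI, a beaded microfibril around cells, gave a mixed picture. Col6a2 fell, with a log2 change of -0.74 ± 0.17 (adjusted p = 0.0117). It had 7.43, 7.71, 7.85 and 10.04 CPM at 1% protein, against 13.3, 14.03, 16.1 and 11.7 CPM at 20% protein. Col6a1, which neighbours it on chromosome 10, had -0.39 ± 0.29 with an adjusted p of 0.365, and its libraries overlapped between the groups. Col6a3 had 7.09, 8.27, 9.23 and 8.79 CPM at 1% protein, against 7.53, 7.39, 9.08 and 8.86 CPM at 20% protein. Its change of 0.02 ± 0.10 (adjusted p = 0.889) was within the spread of the libraries, and it was the only member above 0, turning to -0.02 without replicate 2 on 60% fat and 1% protein.

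In the basement membrane group 2 of 4 fell. Nid1, the nidogen that links laminin to collagen IV, had 7.71, 7.88, 6.63 and 8.08 CPM at 1% protein, against 11.99, 12.99, 13.8 and 12.4 CPM at 20% protein. The groups did not overlap, and the change was -0.76 ± 0.11 (adjusted p = 0.000456). Col4a2, a chain of the collagen IV network, fell, with a log2 change of -0.31 ± 0.07 (adjusted p = 0.0105), the smallest among the genes that passed. It averaged 62.5 ± 9.72 CPM at 1% protein and 76.98 ± 5.97 CPM at 20% protein (SD, n = 4 each). Its partner chain Col4a1 had 27.7, 32.97, 36.9 and 41.8 CPM at 1% protein, against 37.1, 37.5, 38.1 and 41.1 CPM at 20% protein. Those ranges overlapped, and the change of -0.15 ± 0.09 did not pass (adjusted p = 0.253). Both chains lie head to head on chromosome 8 with annotated spans that touch, and how reads at the shared edge were counted is not given. Lama2, a laminin chain, had -0.16 ± 0.08 (adjusted p = 0.175). Col4a1 was called lower (adjusted p = 0.0268) once the 2 libraries with cortical markers were left out.

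Of 9 proteoglycans and other matrix proteins, 8 could be tested and 7 fell. Bgn, biglycan, a small proteoglycan that binds collagen fibrils, had 12.9, 10.9, 10.6 and 14.8 CPM at 1% protein, against 21.8, 21.04, 25.1 and 23.6 CPM at 20% protein. Its highest value at 1% protein lay well under its lowest at 20% protein, and the change was -0.90 ± 0.13 (adjusted p = 0.000494). Its relatives lumican (Lum) and decorin (Dcn) fell, with log2 changes of -1.24 ± 0.26 and -0.85 ± 0.18 (adjusted p = 0.0074 and 0.00833). Dcn overlapped between the groups through a single library, replicate 2 on 20% fat and 1% protein, at 13.9 CPM, where the other 3 at 1% protein had 6.58 to 7.57 CPM. Islr, a leucine-rich repeat protein of stromal cells, had 9.06, 5.80, 6.91 and 9.88 CPM at 1% protein, against 15.5, 14.7, 17.7 and 14.8 CPM at 20% protein. No library of a group reached the other group, and the change was -0.99 ± 0.16 (adjusted p = 0.00123). The Islr span overlaps that of the coding gene Islr2 on the same strand, and its count is uncertain to that extent.

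Fn1, fibronectin, which cells grip through integrins, had 40.4, 39.7, 39.4 and 50.4 CPM at 1% protein, against 62.9, 61.5, 70.2 and 67.8 CPM at 20% protein. The groups were apart, with a change of -0.63 ± 0.12 (adjusted p = 0.00356). Prg4, lubricin, fell, with a log2 change of -1.42 ± 0.33 (adjusted p = 0.011), although it reached 8.41 CPM in replicate 2 on 20% fat and 1% protein against 2.03 to 3.38 CPM in the other 3 libraries at that level. Its span overlaps the coding gene Tpr on the other strand, and how reads in the overlap were counted is not given. Mgp, the matrix Gla protein that restrains calcification, fell, with a log2 change of -0.56 ± 0.18 at an adjusted p of 0.0497, just inside the threshold, and 16 of 24 alternative settings put it outside. Fbln1, fibulin, stood at 27.6 ± 1.77 CPM at 1% protein and 28.6 ± 2.38 CPM at 20% protein (SD, n = 4 each). Its change of -0.05 ± 0.08 did not pass (adjusted p = 0.716). Ogn, osteoglycin, had 0 counts throughout, and it lies inside the coding gene Cenpp on the other strand. Of 534 coding genes placed in that way, 497 (93.1%) had no count in any library, against 2835 of 17039 (16.6%) that overlap no coding gene. Of 336 that lie inside a coding gene of the same strand, 316 (94.0%) had no count. Nothing can be said of its expression.

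**Figure D3:**
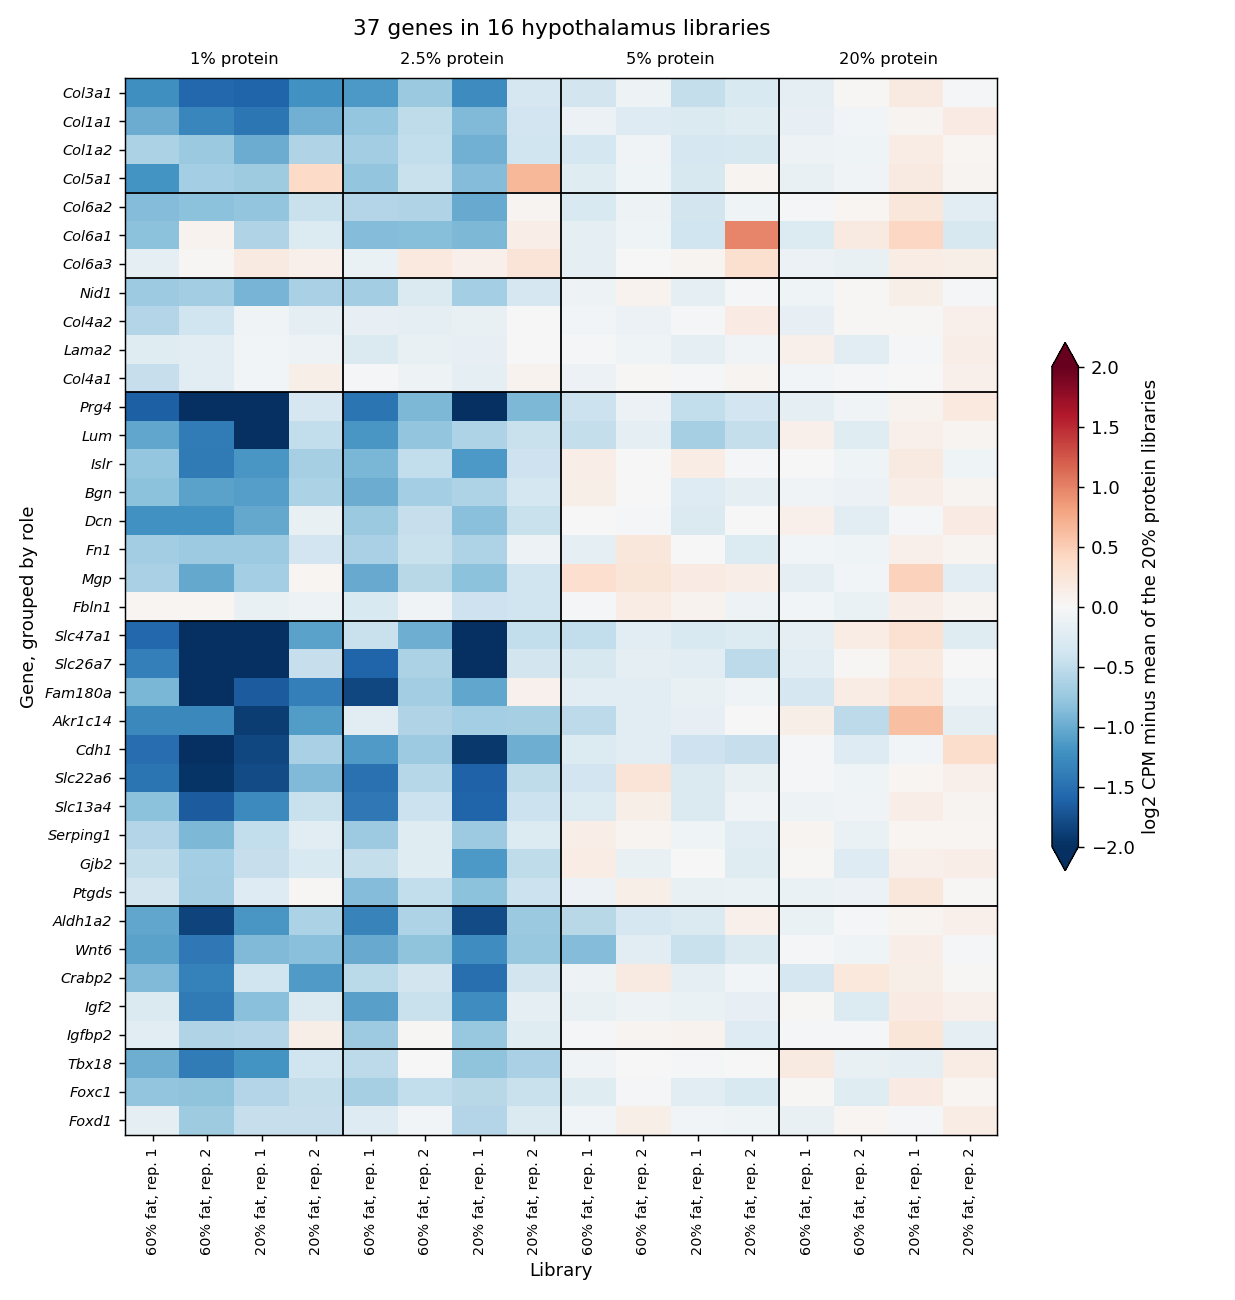
Log2 CPM of 37 genes in 16 libraries, minus the gene's mean over the 4 libraries at 20% protein (colour, from -2 in dark blue to 2 in dark red); columns are libraries from 1% to 20% protein and rows are genes grouped by role. Blue fills the columns at 1% and 2.5% protein, palest in the replicate 2 columns of 20% fat, and the rows of Col6a3, Col4a1, Lama2 and Fbln1 stay between -0.47 and 0.32.

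The arachnoid and barrier genes moved most. Of 10, 9 fell, and their median log2 change of -1.52 was the lowest of the 7 groups. Slc47a1, an exporter of organic cations encoded at chr11:61343401-61378345 on the minus strand of GRCm38, had 1.69, 0.788, 0.663 and 2.44 CPM at 1% protein, against 4.57, 5.82, 6.49 and 4.43 CPM at 20% protein. Each library at 1% protein was below each at 20% protein, although the low-protein values spread widely. The change of -1.92 ± 0.36, 3.79-fold lower, was the largest of the whole set (adjusted p = 0.00338). Slc22a6, the organic anion transporter, had 3.77, 2.64, 2.99 and 5.70 CPM at 1% protein, against 10.3, 9.95, 10.9 and 11.3 CPM at 20% protein. Again the groups stood apart, with a change of -1.49 ± 0.25 (adjusted p = 0.00155). Akr1c14, an aldo-keto reductase that acts on steroids, had 0.563, 0.563, 0.332 and 0.651 CPM at 1% protein, against 1.67, 1.03, 2.38 and 1.33 CPM at 20% protein. The ranges did not meet, and the change was -1.59 ± 0.28 (adjusted p = 0.0021), but its libraries held as few as 6 counts.

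Cdh1, the E-cadherin of the arachnoid barrier junctions, fell, as did Fam180a, with log2 changes of -1.56 ± 0.30 and -1.59 ± 0.33 (adjusted p = 0.0037 and 0.00587). The anion exchanger Slc26a7 and the sulphate transporter Slc13a4 fell, with changes of -1.62 ± 0.44 and -0.99 ± 0.25 (adjusted p = 0.0246 and 0.0184). Slc26a7 had as few as 3 counts in a library. Serping1, the complement C1 inhibitor, and Gjb2, a connexin of meningeal gap junctions, fell, with changes of -0.54 ± 0.14 and -0.49 ± 0.15 (adjusted p = 0.0193 and 0.0401), and Gjb2 missed the threshold in 7 of 24 alternative settings, Slc26a7 in 6, Serping1 in 4 and Slc13a4 in 2. Ptgds, the prostaglandin D synthase, was the gene of the set with the most counts. It had 938, 742, 1009 and 1227 CPM at 1% protein, against 1098, 1115, 1415 and 1232 CPM at 20% protein. The ranges overlapped, and the change of -0.32 ± 0.12 did not pass (adjusted p = 0.0915). In 3 of 24 alternative settings it passed, among them the fit without the 2 libraries with cortical markers (adjusted p = 0.00583).

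Of the 5 signalling genes 3 fell. Aldh1a2 makes retinoic acid from retinaldehyde and fell, with a log2 change of -1.13 ± 0.23 and means of 6.49 ± 2.15 CPM at 1% protein and 14.2 ± 1.01 CPM at 20% protein (SD, n = 4 each; adjusted p = 0.00479). Crabp2, which carries retinoic acid to the nucleus, fell, with a change of -0.94 ± 0.23 (adjusted p = 0.0171). The secreted ligand Wnt6 had 2.70, 2.08, 3.10 and 3.20 CPM at 1% protein, against 5.70, 5.44, 6.32 and 5.71 CPM at 20% protein. The groups lay well apart, and the change was -1.06 ± 0.15 (adjusted p = 0.000525). Igf2, a growth factor of the meninges and choroid plexus, had 88.6, 40.8, 60.6 and 89.4 CPM at 1% protein, against 111, 89.7, 121 and 116 CPM at 20% protein. The highest value at 1% protein lay just under the lowest at 20% protein, and the values at 1% spread widely, and the change of -0.65 ± 0.22 lay just outside the threshold (adjusted p = 0.0559), passing in 6 of 24 alternative settings. Igfbp2, a binding protein of IGFs, had -0.30 ± 0.17 (adjusted p = 0.245).

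All 3 transcription factors fell. Foxc1, a forkhead factor without which the meninges do not form properly in mice, had 5.29, 5.23, 6.14 and 6.62 CPM at 1% protein, against 9.41, 7.83, 10.4 and 9.55 CPM at 20% protein. The groups did not overlap and the libraries at 1% protein were close together, with a change of -0.68 ± 0.10 (adjusted p = 0.000834). Tbx18, a T-box factor of fibroblasts and mural cells, and Foxd1, another forkhead factor, had changes of -0.9994 ± 0.22 and -0.45 ± 0.13 (adjusted p = 0.00895 and 0.029). Foxd1 missed the threshold in 5 of 24 alternative settings and Tbx18 in none.

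The position of 2.5% and 5% protein between these ends was read from the means and tested against 20% protein, which all 3 contrasts share. The set's median change was -0.18 for 1% against 2.5% and -0.10 for 5% against 20% protein, both within a diet code series, and -0.63 for 2.5% against 20% protein, across the series. For 28 of the 37 genes the mean increased at every step from 1% to 2.5%, 5% and 20% protein, an order found in 8.72% of all genes. Col1a1 averaged 7.96 ± 1.30 CPM at 1%, 11.6 ± 1.88 at 2.5%, 15.3 ± 0.873 at 5% and 17.9 ± 1.73 at 20% protein (SD, n = 4 each). Slc47a1 averaged 1.40 ± 0.834, 2.75 ± 1.38, 4.18 ± 0.322 and 5.33 ± 0.995 CPM along the same order. The 9 genes without that order were Col6a1, Col6a3, Mgp, Islr, Fbln1, Gjb2, Ptgds, Igf2 and Igfbp2. Ptgds averaged 979 ± 200.04 CPM at 1%, 776 ± 118 at 2.5%, 1152 ± 104 at 5% and 1215 ± 146 at 20% protein, with its lowest mean at 2.5%.

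At 2.5% protein against 20% protein no member passed the adjusted threshold, where 0.00601% of all genes were called lower. The values still lay low: 36 of 37 changes were below 0, with a median of -0.63 against 0.0026 over all genes, and 31 of the 37 had an unadjusted p under 0.05, where 4.81% of all genes did. In 22 genes all 4 libraries at 2.5% protein lay below all 4 at 20% protein, against 2.28% of all genes. Wnt6 had 2.81, 3.26, 2.37 and 3.37 CPM at 2.5% protein, and its change of -0.97 ± 0.15 was nearest to passing (adjusted p = 0.0636), followed by Col1a2 with -0.63 ± 0.11 (adjusted p = 0.0851). Prg4 and Cdh1 had the most negative values, -1.29 and -1.18, with adjusted p = 0.328 and 0.319. Without the 2 libraries with cortical markers 18 members fell among 43 genes in all, without replicate 2 on 20% fat and 1% protein alone 9 fell, and DESeq2 called 10, so the count of 0 rests on the settings.

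At 5% protein against 20% protein no member passed, where 0.0120% of all genes were called lower and 0.0300% in either direction. The median of the 37 changes was -0.10 against 0.0014 over all genes, with 32 below 0. Wnt6 alone had 4 libraries at 5% protein, 3.12, 4.95, 4.24 and 4.70 CPM, below the 4 at 20% protein, a separation found in 1.35% of all genes, and its change was -0.45 ± 0.15 (adjusted p = 0.9997). Col1a1 had -0.23 ± 0.12 and Lum -0.48 ± 0.24, both with an adjusted p of 0.9997. Mgp and Islr had means at 5% protein, 22.3 ± 1.48 and 16.3 ± 1.02 CPM, above those at 20% protein, 19.5 ± 4.64 and 15.7 ± 1.41 CPM, within the spread of the libraries. An unadjusted p under 0.05 was found for 2 of the 37, Wnt6 and Col1a2, which is near the 3.01% found over all genes.

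The direct contrast of 1% with 2.5% protein singled out Col1a1, the only member to pass, where 0.931% of all genes were called lower. It had 8.95, 7.20, 6.52 and 9.17 CPM at 1% protein, against 10.4, 12.5, 9.63 and 13.7 CPM at 2.5% protein. The highest value at 1% lay below the lowest at 2.5% protein, and the change was -0.54 ± 0.13 (adjusted p = 0.0357). Akr1c14 was the other gene whose groups did not overlap, a pattern of 3.15% of all genes, with 0.563, 0.563, 0.332 and 0.651 CPM at 1% protein, against 1.30, 0.978, 0.915 and 0.925 CPM at 2.5% protein. Its change of -0.96 ± 0.30 had an adjusted p of 0.0899. Over the 37 genes the median was -0.18, with 30 below 0, and Ptgds lay above 0 at 0.33 ± 0.12 (adjusted p = 0.143). The call count moved with single libraries: 10 members fell without replicate 2 on 20% fat and 1% protein and 2 without replicate 1 on 20% fat and 2.5% protein. None passed without replicate 2 on 60% fat and 1% protein, replicate 1 on 20% fat and 1% protein, either library on 60% fat and 2.5% protein or replicate 2 on 20% fat and 2.5% protein. The number of all genes that fell moved as well, from 39 to 2167 when each library was left out in turn. The share of 0.931% therefore belongs to the fit with all libraries and is no measure for these counts.

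The straight line on percent protein that the study's design text states gave fewer calls than the contrast of its ends. Along that slope, scaled as the log2 change of 1% over 20% protein, Wnt6 alone of the set passed, at -0.96 ± 0.16 (adjusted p = 0.0396), and it was the single gene of all tested that fell (0.00601%). When the diet code series was added to that model no member passed: Wnt6 stood at -0.57 ± 0.18 (adjusted p = 0.983) and Col1a1 at -0.35 ± 0.21 (adjusted p = 0.983). Col3a1 had -1.03 ± 0.23 without that term and -0.46 ± 0.25 with it. Foxc1 had -0.58 ± 0.11, Col1a2 -0.66 ± 0.12 and Col1a1 -0.83 ± 0.18, with adjusted p = 0.118, 0.08 and 0.142. With protein on a log2 scale, 28 members and 602 genes in all fell. Wnt6 passed in 11 of 24 alternative settings of the linear slope, and leaving out any library at 1% or 20% protein, replicate 1 of 60% fat with 2.5% or with 5% protein, or replicate 2 on 20% fat and 2.5% protein took the count of members to 0. Without replicate 2 on 60% fat and 5% protein 3 members passed.

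**Figure D4:**
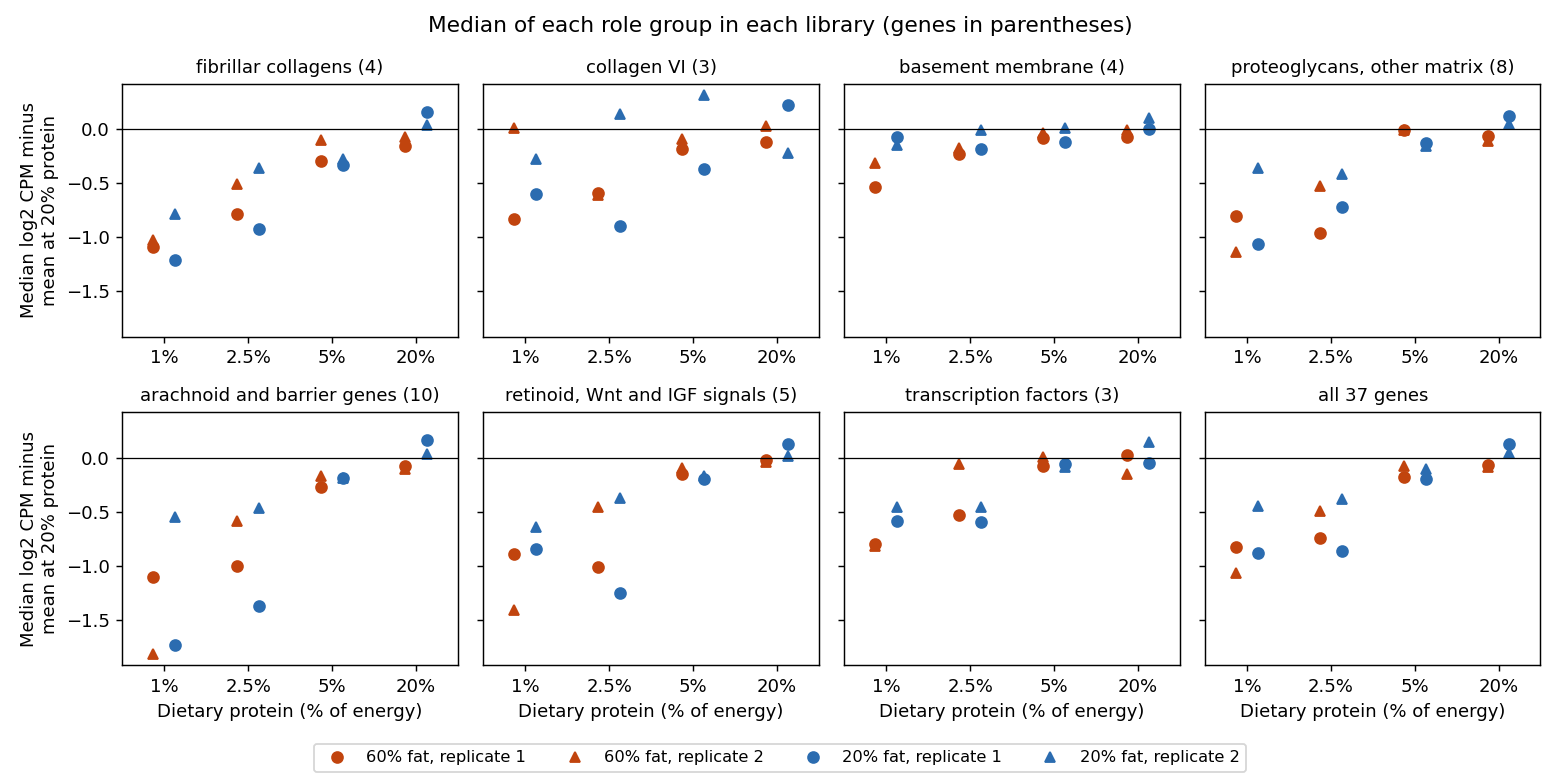
Median over the genes of each role group of log2 CPM minus the gene's mean at 20% protein (y axis), in each of 16 libraries by dietary protein (x axis, % of energy); colour gives fat level and shape the replicate. The arachnoid and barrier median spans -1.81 to -0.55 among the 4 libraries at 1% protein and that of the basement membrane genes -0.53 to -0.07.

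Libraries of the same diet differed in how low the set lay. In replicate 2 on 20% fat and 1% protein the median over the 37 genes was -0.44 on the log2 scale relative to the mean at 20% protein, where the other 3 libraries at 1% protein had -0.82, -1.06 and -0.88. The gap was wider among the arachnoid and barrier genes, at -0.55 in that library and -1.10, -1.81 and -1.73 in the others, while the fibrillar collagens had -0.78 there and -1.09, -1.02 and -1.21 in the others. At 2.5% protein the replicate 1 libraries stood at -0.74 with 60% fat and -0.86 with 20% fat, and the replicate 2 libraries at -0.49 and -0.38. Replicate 2 was the higher library for 9 of 37 genes at 1% protein with 60% fat and 33 with 20% fat. At 2.5% protein it was higher for 32 with 60% fat and all 37 with 20% fat, at 5% protein for 27 and 25, and at 20% protein for 19 and 13 in the same order. Over all genes 47.7% to 52.0% were higher in replicate 2 of a diet. The replicate 2 libraries of 20% fat with 1% and 2.5% protein are those with cortical markers, while the libraries of 60% fat with 2.5% protein had cortical marker sums of 487 and 379 CPM. Replicate 2 on 20% fat and 1% protein also differed in mitochondrial share, 3.20% against 1.54% to 1.78% in the other 3 at 1% protein. Its Spearman's rho between gene length and the deviation from the mean level was 0.17, against -0.26 to -0.17 in those 3. The part of other brain regions or of these library traits in the higher values was not tested.

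Ratios of raw counts within a library, which no scaling between libraries touches, separated collagens. The Col1a1 count over the Col4a1 count was 0.177 to 0.323 in the 4 libraries at 1% protein, 0.279 to 0.350 at 2.5%, 0.377 to 0.469 at 5% and 0.430 to 0.487 at 20% protein. The ranges at 1% and 20% protein did not touch, and Nid1 over Col4a1 gave 0.180 to 0.278 at 1% and 0.301 to 0.363 at 20% protein. Against the barrier transporter Slc13a4 the ranges overlapped. Col1a1 over Slc13a4 was 0.671 to 1.24 at 1% protein and 0.907 to 1.04 at 20% protein, with the range at 20% protein inside that at 1%. Col3a1 over Slc13a4 was 0.167 to 0.301 at 1% and 0.2735 to 0.311 at 20% protein, with the lower mean at 1% protein (0.227 ± 0.056 against 0.291 ± 0.018, SD). Col1a1 over Ptgds was 0.00647 to 0.00970 at 1%, 0.0140 to 0.0157 at 2.5%, 0.0114 to 0.0148 at 5% and 0.0131 to 0.0162 at 20% protein, so only the libraries at 1% protein lay apart.

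Between the fat levels no member was called. At 60% fat against 20% fat the count was 0, where 0.00601% of all genes were called lower, and the median of the 37 changes was -0.10 against -0.0044 over all genes. Unadjusted p-values under 0.05 were found for 4 of the 37 members and for 7.79% of all genes, so the members lay near the share of all genes. The 4 were collagen genes, and their values are given as description alone. Col4a2 had a lowest, median and highest of 51.0, 68.8 and 78.2 CPM in the 8 libraries at 60% fat and 67.8, 76.4 and 85.7 CPM in the 8 at 20% fat. Its ranges overlapped, with a change of -0.19 ± 0.05 (adjusted p = 0.628). Col6a3 had 7.09, 7.498 and 9.40 CPM at 60% fat and 8.53, 8.97 and 10.2 CPM at 20% fat, a change of -0.23 ± 0.07 (adjusted p = 0.628). Col5a1 and Col4a1 had -0.45 ± 0.20 and -0.13 ± 0.06, at an adjusted p of 0.628 each. No other tool or filter run, DESeq2 among them, called a member by fat.

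Taken within each fat level, 1% protein against 20% protein gave calls at both. With 60% fat 16 of 37 fell, where 2.28% of all genes did, and with 20% fat 8 fell, where 1.18% did. The 6 called at both were Col1a1, Col3a1, Nid1, Bgn, Wnt6 and Foxc1, which is 6 of 16 and 6 of 8. The number of all genes called at both is not given here, so this overlap describes the set and is no independent test of it. These contrasts share no library, though they share an estimate of spread. Col1a1 changed by -1.04 ± 0.18 with 60% fat and -1.29 ± 0.18 with 20% fat (adjusted p = 0.0135 and 0.00296). Wnt6 changed by -1.22 ± 0.23 and -0.93 ± 0.22 in the same order (adjusted p = 0.0195 and 0.0482). Col1a2 and Akr1c14 passed with 20% fat and not with 60% fat, at -0.60 and -1.25 with 60% fat, against -0.88 and -1.90 with 20% fat, and 10 others, Dcn, Prg4 and Cdh1 among them, passed with 60% fat and not with 20% fat.

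The difference between the fat levels was itself tested, and no member and no gene passed (0% of all genes), while 7.84% of all genes and 1 member, Fbln1, had an unadjusted p under 0.05. DESeq2 called no member either. Fbln1 had 29.2 and 29.1 CPM at 1% protein with 60% fat, against 27.3 and 26.0 CPM at 20% protein with 60% fat. With 20% fat it had 25.7 and 26.6 CPM at 1% protein, against 31.4 and 29.6 CPM at 20% protein. Its libraries thus lay in opposite orders at the 2 fat levels, with a difference of 0.35 ± 0.14 (adjusted p = 0.623). It was the only member with such orders. The share of all genes with them is not given, so the order is description alone. For Dcn the difference was -0.58 ± 0.33 (adjusted p = 0.635), and its call with 60% fat alone is not shown to be a difference between the fat levels. With 2 libraries per diet the counts within a fat level rested on single libraries. With 60% fat the 16 became 0 without replicate 2 at 1% protein or without either library at 20% protein, 2 without replicate 1 at 1% protein, 8 or 9 without a library on 60% fat and 5% protein or on 20% fat and 20% protein, and 25 without either library on 20% fat and 1% protein. With 20% fat the 8 became 16 without replicate 2 at 1% protein, 13 without replicate 1 at 2.5% protein, 2 without replicate 1 at 1% protein, and 1 and 3 without replicates 1 and 2 at 20% protein.

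Genes that serve the same matrix, from lists made with earlier results of these data known, had medians closer to 0 than the set. Of 30 genes for making and crosslinking collagen, 6 fell and 1 rose at 1% against 20% protein, with a median log2 change of -0.11. Over all genes 6.01% fell and 8.26% rose. Serpinh1, the collagen chaperone, averaged 16.3 ± 3.39 CPM at 1% protein and 29.3 ± 3.75 CPM at 20% protein (SD, n = 4 each), a change of -0.86 ± 0.13 (adjusted p = 0.000646). Pcolce, which speeds the trimming of procollagen, Plod2, a lysyl hydroxylase, and Loxl1, a crosslinking oxidase, fell, with changes of -0.84 ± 0.16, -0.61 ± 0.15 and -0.45 ± 0.14 (adjusted p = 0.00327, 0.0168 and 0.044). The gene that rose, at 0.45, was Pcolce2, named after its values were seen. The other collagen genes had 13 of 33 lower and none higher, with a median of -0.36. Col7a1, Col14a1, Col4a6 and Col27a1 led them by size, at -0.79, -0.79, -0.70 and -0.66. Of 15 tested genes of matrix turnover 5 fell, with Ctsk, a collagen-cleaving cathepsin, at -0.63 ± 0.18, and Adamts4, an aggrecan-cleaving protease, at -0.62 ± 0.11 (adjusted p = 0.0279 and 0.00193). Adamts1 and Mrc2 were at -0.61 and -0.53, with Mmp14, named after its values were seen, at -0.46, and the median of the list was -0.22.

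Partners of the signals and of the basement membrane were read against the same shares, 6.01% of all genes lower and 8.26% higher. In the retinoic acid pathway beyond the set 2 of 17 rose and none fell (median -0.09), the receptors Rxra and Rxrb at 0.19 ± 0.06 and 0.24 ± 0.08 (adjusted p = 0.0347 and 0.0425). In the IGF axis 2 of 14 fell (median -0.19), Igfbp5, a binding protein, at -0.21 ± 0.05 and Igf2r, which clears IGF2, at -0.19 ± 0.05 (adjusted p = 0.0175 and 0.03). Among 18 genes of TGF-beta signalling 1 fell, Ltbp4, which holds latent TGF-beta in the matrix, at -0.30 ± 0.07 (adjusted p = 0.0118), and the median of that list was -0.05. Of 14 basement membrane partners 4 fell and 1 rose, with a median of -0.22. Lama1 fell by 0.31 on the log2 scale, and Agrn, agrin, named after its values were seen, fell as well. Lama4, the laminin chain of vessels, and Hspg2, perlecan, fell, with changes of -0.65 ± 0.15 and -0.59 ± 0.13 (adjusted p = 0.0101 and 0.00727). Sparc, a collagen-binding matricellular protein, rose by 0.40 ± 0.08 (adjusted p = 0.00428).

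Markers of neighbouring cell types were read beside these results and the shares over all genes, 6.01% lower and 8.26% higher. Endothelial markers fell most often, 10 of 12 with a median of -0.48, led by Kdr, the VEGF receptor, at -0.92 ± 0.13 and Emcn at -0.82 ± 0.13 (adjusted p = 0.000451 and 0.000834). Their summed level was 215 to 239 CPM at 1% protein and 281 to 325 CPM at 20% protein, with none of the 12 at 0. Mural markers gave 4 lower and 2 higher of 12, summing to 231 to 252 CPM at 1% and 274 to 294 CPM at 20% protein, with Rgs5 at -0.64 ± 0.12 and Kcnj8 at 0.65 ± 0.15 (adjusted p = 0.00248 and 0.00994). The other mural marker that rose was Abcc9, at 0.27, and Vtn fell with -0.30, both named after their values were seen. Border macrophage markers gave no call in 6 tested, with 18.4 to 25.1 CPM against 22.2 to 27.0 CPM. Endothelial markers thus moved in the same direction as the set, and the part of the vascular markers in the result was not tested.

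**Figure D5:**
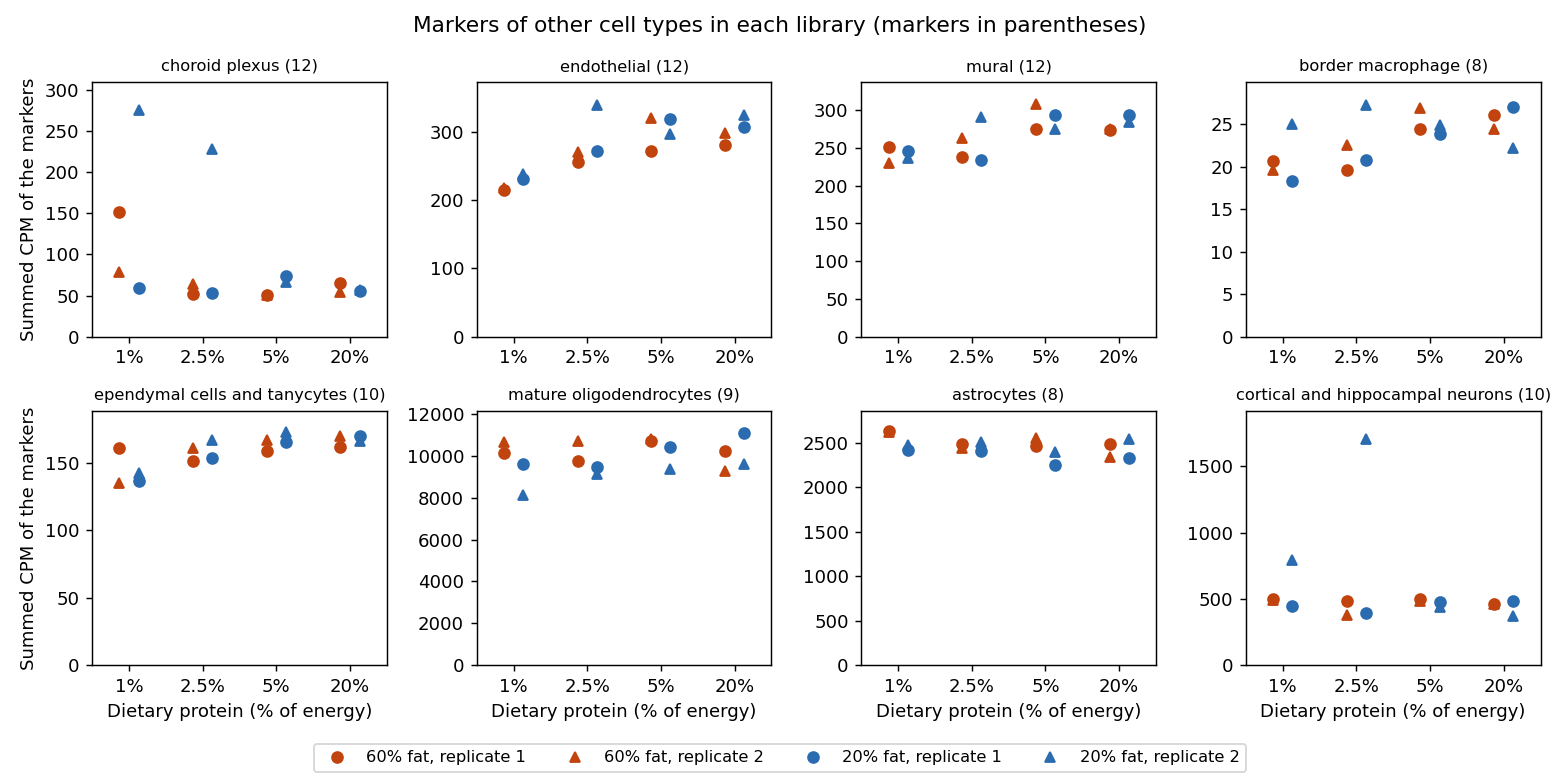
Summed TMM-scaled CPM of marker genes of 8 other cell types (y axis, from 0) in each of 16 libraries by dietary protein (x axis, % of energy); colour gives fat level and shape the replicate. Endothelial markers lie at 215 to 239 CPM at 1% protein, below all libraries at 20% protein. The sums of mural and of ependymal and tanycyte markers at 1% protein also lie below all at 20% protein. Cortical markers are high in replicate 2 of 20% fat with 1% and with 2.5% protein.

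The remaining marker lists were read against the same shares of all genes. Choroid plexus markers had 1 of 11 tested higher, Ttr, the thyroxine carrier, at 3.26 ± 0.93 (adjusted p = 0.0297), with sums of 58.7 to 275 CPM at 1% and 54.0 to 65.8 CPM at 20% protein, and Kcnj13 listed at 0. No marker of blood cells (of 5), cortical neurons (of 10) or pituitary (of 6) passed. Ependymal cells and tanycytes had 1 of 10 lower, Vim at -0.36. Their summed level also lay apart, at 135 to 160.9 CPM at 1% and 162 to 170 CPM at 20% protein. Astrocytes had 1 of 7 lower, the water channel Aqp4 at -0.86, and 3 higher, led by Agt at 0.58. Hypothalamic neurons had 3 of 13 lower, led by Pomc at -1.91, and 1 higher, Agrp at 0.59. Alas2, Tshb and Gfap of those lists were listed at 0 in all libraries. In the 3 libraries at 1% protein with the low mitochondrial share, longer genes also stood lower, and Spearman's rho between gene length and the deviation from the mean level, taken over genes, was -0.26, -0.17 and -0.26 there, against 0.17 in the other library at 1% protein and -0.14 to 0.32 in the 12 libraries at higher protein. With that length trend removed as an offset the same 28 members fell, and Col1a1 passed under each of the 24 alternative settings.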

How the data were processed

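The authors deposited 1 table of raw read counts per gene for 16 libraries of total RNA, with a gene length column, a feature value of another kind, which was used for a length check. Per the submitters' processing notes, tools included edgeR, featureCounts, Subread 5.0, HISAT2 2.1.0, FastQC and SAMtools 1.2, and the build was GRCm38. The labels do not say whether counting used strand. The deposited length equals the whole gene span for 29 of the 38 genes, so levels were not compared between genes. Library totals were 17731242 to 18511818 counts. No 2 libraries agreed within sampling noise, with a lowest chi-square per degree of freedom of 2.54.

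Counts were analysed with edgeR 4.0.16 in R 4.3.3 (limma 3.58.1). Genes passed filterByExpr over the 8 diets with a minimum count of 10, were scaled by TMM and fitted over all 16 libraries with protein as 4 levels plus fat. Contrasts within a fat level, and their difference, came from a fit of 8 diets, and the slope from protein in percent, fat and their interaction, the last dropped where its p was above 0.05. Quasi-likelihood F tests were adjusted by Benjamini-Hochberg at 0.05 over all 16646 genes. The SE is the absolute log2 change over the square root of F. The CPM values are TMM-scaled, and their log2 values had 2 as prior count. Alternatives were DESeq2 1.42.0, RLE factors, 2 other filters, a replicate block, only the libraries at 1% and 20% protein, a length offset, log2 protein, a diet code term, omission of 2 libraries with cortical markers and of each library in turn. The test was tried on simulated counts with independent noise in each library, which cannot speak to differences in library makeup. Values per library are given for the 12 members with the smallest adjusted p at 1% against 20% protein, the members past the slope, and the 3 of highest mean CPM that did not pass. From the other lists up to 4 genes past the threshold were eligible, by size of change, with a mean of at least 1 CPM. The test result of 1 marker list is not reported here. The members and the lists were chosen with earlier results of these data known. Promoter windows came from RefSeq (GRCm38.p6) and gene spans from GENCODE on GRCm38.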

Additional observations from a re-analysis of the deposited data

Results flagged for a closer look

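Within the 4 libraries of a protein level, 1 library lay far from the other 3 in 18 of 192 groups tested by Dixon's criterion, which chance meets in about 1 in 20 groups. Replicate 2 on 20% fat and 1% protein was high for Dcn (13.9 CPM, others 6.58 to 7.57), Fn1 (50.4, others 39.4 to 40.4) and Col6a2 (10, others 7.43 to 7.85), and its cortical marker sum was 797 CPM against 449 to 499 CPM in the others. Replicate 2 on 20% fat and 2.5% protein had Col6a1 at 17.1 CPM (others 8.29 to 8.53), with sums of 1710 CPM for cortical (others 379 to 487), 228 CPM for choroid plexus (others 52.0 to 64.1), 86.6 CPM for blood cell (others 52.7 to 54.9) and 755 CPM for hypothalamic neuron markers (others 1000 to 1040). Akr1c14 was 1.30 CPM in replicate 1 on 60% fat and 2.5% protein and 0.915 to 0.978 CPM in the others.

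At 5% protein, replicate 2 of 60% fat stood above the other 3 libraries for Col1a2 (34.2 CPM, others 28.2 to 28.7), Ptgds (1310, others 1090 to 1110) and Foxd1 (6.64, others 5.80 to 5.92). Col6a1 reached 30.7 CPM in replicate 2 on 20% fat and 5% protein (others 11.7 to 14.6), and Dcn was low in replicate 1 of that diet at 12.6 CPM (others 15.2 to 15.6). At 20% protein, replicate 2 of 60% fat was low for Lum (1.63 CPM, others 2.03 to 2.11) and Serping1 (13.4, others 15.0 to 15.2), and blood cell markers summed to 35.2 CPM in replicate 2 of 20% fat (others 55.9 to 57.6). For Fbln1, both libraries at 1% protein lay above both at 20% protein with 60% fat and below them with 20% fat. The difference between the fat levels was 0.349 on the log2 scale and did not pass (adjusted p = 0.623). No other member had such orders, and the share of all genes with them is not given.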

How the results depend on the processing

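Across 24 alternatives, the number of members lower at 1% than at 20% protein stayed between 21 and 33. Single members were followed for all tested members at 1% against 20% protein, and for chosen members alone in the other comparisons. They kept side and direction in 2023 combinations of member, comparison and setting. These include members that were called in neither fit. The call was lost in 190 combinations and gained in 90. The sign turned for Fbln1 at 1% against 20% protein with a length offset (0.017) and without replicate 1 on 20% fat and 20% protein (0.0045), and for Col6a3 when single libraries were left out (-0.024 to 0.053), negative without replicate 2 on 60% fat and 1% protein. Over the same omissions Fbln1 ranged from -0.12 to 0.0045. The cause was not tested. Counts below are members lower, then all genes lower and higher. With DESeq2 they were 10, 23 and 3 at 2.5% against 20% protein, 8, 47 and 35 on the slope, and for all genes 294 and 411 at 1% against 2.5%, 803 and 516 within 60% fat, 1 lower at 5% against 20% and 0 lower by fat. Without a filter they were 10, 21 and 4 at 2.5% against 20%, 2, 4 and 4 on the slope, 28, 1382 and 749 within 60% fat, 18, 343 and 217 within 20% fat, and 1 gene higher for the difference. A stricter filter gave 0 genes lower at 2.5%, 1 at 5% against 20% and 0 by fat. With the libraries at 1% and 20% protein alone, 450 genes were lower and 356 higher. On a log2 scale the slope gave 28, 602 and 709, and with the diet code term 0, 0 and 0. Without the 2 libraries with cortical markers the counts were 2922 lower and 2967 higher over all genes at 1% against 20%, 18, 43 and 7 at 2.5% against 20%, 5, 2043 and 1983 at 1% against 2.5%, 0, 0 and 1 on the slope, 30, 1651 and 1214 within 60% fat, 19, 432 and 495 within 20% fat, and 2 lower by fat.

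The labels share replicate numbers across diets and do not say what the numbers mean. Over 28 pairs of diets the deviations of same-numbered libraries correlated at -0.17 to 0.34 (7 pairs above 0.1 and 4 below -0.1). These correlations cannot decide whether same-numbered libraries shared a batch. With the replicate as a block the same 28 members fell at 1% against 20% protein, with 2, 4 and 3 at 2.5% against 20%, 359 genes higher at 1% against 2.5%, 2 lower by fat, and 1093 lower and 765 higher within 60% fat. Leaving out each library in turn gave 21 to 33 members lower at 1% against 20% protein (487 to 2804 genes lower, 439 to 2812 higher), 0 to 9 at 2.5% against 20% (0 to 14, 0 to 3), 0 at 5% against 20% (0 to 2, 1 to 3), 0 to 10 at 1% against 2.5% (39 to 2167, 56 to 2098), 0 by fat (0 to 2, 0 to 1), 0 to 3 on the slope (0 to 3, 0 to 7), 0 to 25 within 60% fat (5 to 1601, 11 to 1154), 1 to 16 within 20% fat (33 to 362, 20 to 443) and 0 for the difference. Low counts limit Slc26a7 and Akr1c14, with as few as 3 and 6 counts in a library. Intervals were not computed for single libraries.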
